A study of Mus musculus with 30 samples.

Results

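The genes described here encode the respiratory chain and ATP synthase of the mitochondrion. They are the protein-coding mouse genes whose symbols begin with Nduf, Sdha to Sdhd, Uqcr, Cox4i to Cox8, Atp5, mt-Nd, mt-Co, mt-Cyt or mt-Atp, with pseudogenes left out. The rule found 113 of the 55414 gene IDs in the files. Of these, 100 lie in the nuclear genome and 13 in mitochondrial DNA (mtDNA). The nuclear genes comprise 37 subunits of complex I, 4 of complex II, 8 of complex III, 19 of complex IV and 18 of complex V, with 14 assembly factors and accessory genes that share those prefixes. The rule reads symbols alone and uses no measured value, though the gene set was picked as a topic with earlier results of these data known. Of the 113, 106 had enough reads to be tested (93 nuclear, 13 mtDNA). The 7 others were Cox4i2 (72 reads in all 30 libraries together), Cox6b2 (158 reads), Ndufa4l2 (11 reads), and Cox7b2, Cox8b, Cox8c and a second ID named Atp5o, which had 0 reads. These counts are too low to compare groups.

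The cells were mouse bone marrow-derived macrophages, obtained by growing marrow for 7 days with medium conditioned by L929 cells (15 or 20% of the volume), which supplies macrophage growth factor. The marrow came from wild-type (WT) mice or from transgenic mice with the TRα1PV allele, which encodes a mutated thyroid hormone receptor α1. Cells of each genotype were left unstimulated (M0), given 20 ng/mL lipopolysaccharide with 20 ng/mL interferon-γ (M1), or given 20 ng/mL interleukin-4 (M2). Each of the 6 groups had 5 libraries of polyA RNA. For each library the labels give a biological replicate number, under a tag named batch, but not which mouse it came from. The p-values therefore measure only the spread between these libraries. The labels give no age or sex of the mice, no duration of stimulation, no zygosity of the mutation and no cell type restriction of it.

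The respiratory chain passes electrons from NADH through complex I, or from succinate through complex II, to ubiquinone, and then through complex III and cytochrome c to complex IV, which reduces oxygen. The protons pumped on the way drive ATP synthase, complex V. Most subunits are made from nuclear genes and imported, while a small core of complexes I, III, IV and V is encoded in mtDNA, whose genes are transcribed as long strands that are cut into single messages. Macrophages stimulated with lipopolysaccharide and interferon-γ are known for a shift to glycolysis, and macrophages given interleukin-4 for oxidative metabolism. The receptor carries the response to thyroid hormone, a classical regulator of mitochondrial metabolism, and the PV mutant is known as a dominant-negative form that binds little hormone.

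Reads in genes ran from 23015952 to 59086252 per library. The sum of 7 macrophage markers lay between 26344 and 33569 CPM in M0 (counts scaled to the library's TMM-adjusted total), between 7403 and 10049 in M1 and between 18564 and 21804 in M2. Markers of erythroid, B, T, NK and muscle cells were at or near 0 in all groups. The summed level of 9 granulocyte markers differed between states, at 48.2 to 209 CPM in WT M0, 3.46 to 5.29 in WT M1 and 28.6 to 92.8 in WT M2, and at 178 to 365, 5.68 to 11.2 and 98.2 to 228 in TRα1PV. The sum of 7 fibroblast markers was 7.04 to 23.9, 4.78 to 6.60 and 3.51 to 14.0 CPM in WT, and 1.26 to 2.80, 2.00 to 2.95 and 0.663 to 2.02 in TRα1PV. The part of these cells in the results below was not tested. Library 2 of WT M0 stood apart for the genes described here. Its mtDNA messages took 3.81% of the reads in genes, while the rest of the group ranged from 0.788% to 1.72%, and 13.9% of its reads lay outside genes, the highest of its group. The results of mtDNA members that rest on WT M0, and any named nuclear change that loses its call, are also given without it.

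The nuclear genome holds copies of mtDNA, and in these files reads that aligned to more than 1 place were counted apart and given to no gene. The first 60 bases of mt-Nd3, a complex I subunit, and of its nuclear copy Gm28438 are shown for how alike the copies are. They are printed 5′ to 3′ from the GENCODE transcripts of build GRCm38, with positions counted from 1 at the 5′ end of mt-Nd3, and the capital marks the substitution T3C (mt-Nd3 base, position, base of the copy).
mt-Nd3: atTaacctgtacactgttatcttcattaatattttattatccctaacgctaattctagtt
Gm28438: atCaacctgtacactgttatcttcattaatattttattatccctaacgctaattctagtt
A nuclear match of at least 99% identity covered 99.1% of the length of mt-Nd3, 99% of mt-Nd4l, 99.6% of mt-Atp6 and of mt-Co2, and 99.9% of mt-Co3, but 63.6% of mt-Nd4, 31.3% of mt-Co1 and 21.1% of mt-Atp8. None covered mt-Cytb, mt-Nd1 or mt-Nd6. Reads per base also ranged widely. Relative to mt-Co1 as 100%, mt-Nd3 reached 0.0677%, mt-Nd4l 0.221%, mt-Co3 0.600%, mt-Atp6 0.624% and mt-Co2 1.17%, against 44.6% for mt-Cytb and 30.2% for mt-Nd1. The search was made against GENCODE transcripts alone, so a copy without an annotated transcript was not seen. The match of mt-Atp8 was 43 bases of Gm10925, which is also the best match of mt-Atp6. As found by this search, the 2 measures did not run together throughout. mt-Atp8, little covered, had 0.0969%, and mt-Nd6, not covered, had 4.86%. The part of the copies in these low levels was not tested. The values of mt-Co1, mt-Nd1 and mt-Cytb carry most of what follows. mt-Atp8 overlaps mt-Atp6, and mt-Nd4l overlaps mt-Nd4. mt-Nd6 lies on the other strand from the rest, and no source used here says whether counting was by strand.

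Short motifs bound by regulators of respiratory genes were looked for in the 82 nuclear members that have a RefSeq promoter (GRCm38.p6, 250 bases before to 50 after the start), on both strands. The NRF1 motif GCGCATGCG lay in 12.2% of the members, in 2.61% of protein-coding genes with a promoter and in 1.95% of all 27025 genes with one. The ETS motif CCGGAAG, the core read by GABP, lay in 26.8%, 12.9% and 9.93% of these sets, and the YY1 motif AAGATGGCG in 9.76%, 2.14% and 1.64%. A direct repeat of the thyroid hormone receptor half-site (DR4) was found in 0 of the 82 members, in 0 of 17492 protein-coding genes and in 4 of all genes. With no match in any protein-coding gene, this search cannot set the members apart. A match is a description of letters, and no match says only that these letters are not in this window. The promoters of 4 members whose values are given below are printed with their motifs in capitals. The first and the second hold NRF1 and ETS motifs, the third NRF1 motifs alone, and the last a YY1 motif. The NRF1 motifs on the 2 strands overlap in GCGCATGCGC, and the ETS motif reads CTTCCGG on the strand shown.
Atp5k, chr5:108434350-108434649, minus strand: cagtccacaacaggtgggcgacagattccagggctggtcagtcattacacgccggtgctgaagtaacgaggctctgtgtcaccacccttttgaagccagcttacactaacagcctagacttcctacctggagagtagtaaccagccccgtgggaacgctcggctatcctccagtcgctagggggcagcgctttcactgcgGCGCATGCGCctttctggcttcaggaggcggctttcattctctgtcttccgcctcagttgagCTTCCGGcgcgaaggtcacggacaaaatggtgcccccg
Cox6a1, chr5:115348909-115349208, minus strand: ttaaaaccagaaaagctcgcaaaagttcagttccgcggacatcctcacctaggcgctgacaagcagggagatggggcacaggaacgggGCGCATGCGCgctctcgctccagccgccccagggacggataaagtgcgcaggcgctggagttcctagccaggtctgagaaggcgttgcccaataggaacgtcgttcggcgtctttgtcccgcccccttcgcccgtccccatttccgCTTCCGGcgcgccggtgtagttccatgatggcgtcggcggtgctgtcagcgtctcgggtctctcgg
Atp5g2, chr15:102670998-102671297, minus strand: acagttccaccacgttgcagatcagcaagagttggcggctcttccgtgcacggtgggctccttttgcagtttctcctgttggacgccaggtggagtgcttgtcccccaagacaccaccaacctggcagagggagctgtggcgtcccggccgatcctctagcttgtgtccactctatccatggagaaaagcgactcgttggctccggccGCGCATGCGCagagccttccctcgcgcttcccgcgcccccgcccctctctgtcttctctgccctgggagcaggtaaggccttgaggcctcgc
Ndufs4, chr13:114388045-114388344, minus strand: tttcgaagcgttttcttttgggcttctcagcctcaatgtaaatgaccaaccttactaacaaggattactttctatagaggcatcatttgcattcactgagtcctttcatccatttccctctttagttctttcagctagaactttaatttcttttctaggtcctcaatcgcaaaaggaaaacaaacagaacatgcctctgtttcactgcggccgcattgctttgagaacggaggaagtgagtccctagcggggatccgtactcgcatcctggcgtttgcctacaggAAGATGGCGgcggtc

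Summed over members, the nuclear and the mtDNA messages moved differently between the states. The nuclear members took 0.510% ± 0.045 of the reads in genes in WT M0 and 0.472% ± 0.024 in TRα1PV M0 (mean ± SD, n = 5 libraries each). Their share was 0.500% ± 0.040 and 0.481% ± 0.018 in M1, and 0.807% ± 0.051 and 0.754% ± 0.063 in M2. Every M2 library lay above every M0 and M1 library of both genotypes. The mtDNA members took 0.901%, 3.81%, 1.22%, 0.788% and 1.72% in WT M0 and 1.62% ± 0.37 in TRα1PV M0. They took 0.827% ± 0.129 and 0.610% ± 0.157 in M1, and 2.22% ± 0.70 and 2.96% ± 0.50 in M2. In TRα1PV the M0, M1 and M2 libraries did not overlap in this mtDNA share, while in WT the M0 libraries overlapped both other states. These are shares of polyA RNA, in which fewer cells of a type and less RNA per cell cannot be told apart.

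**Figure D1:**
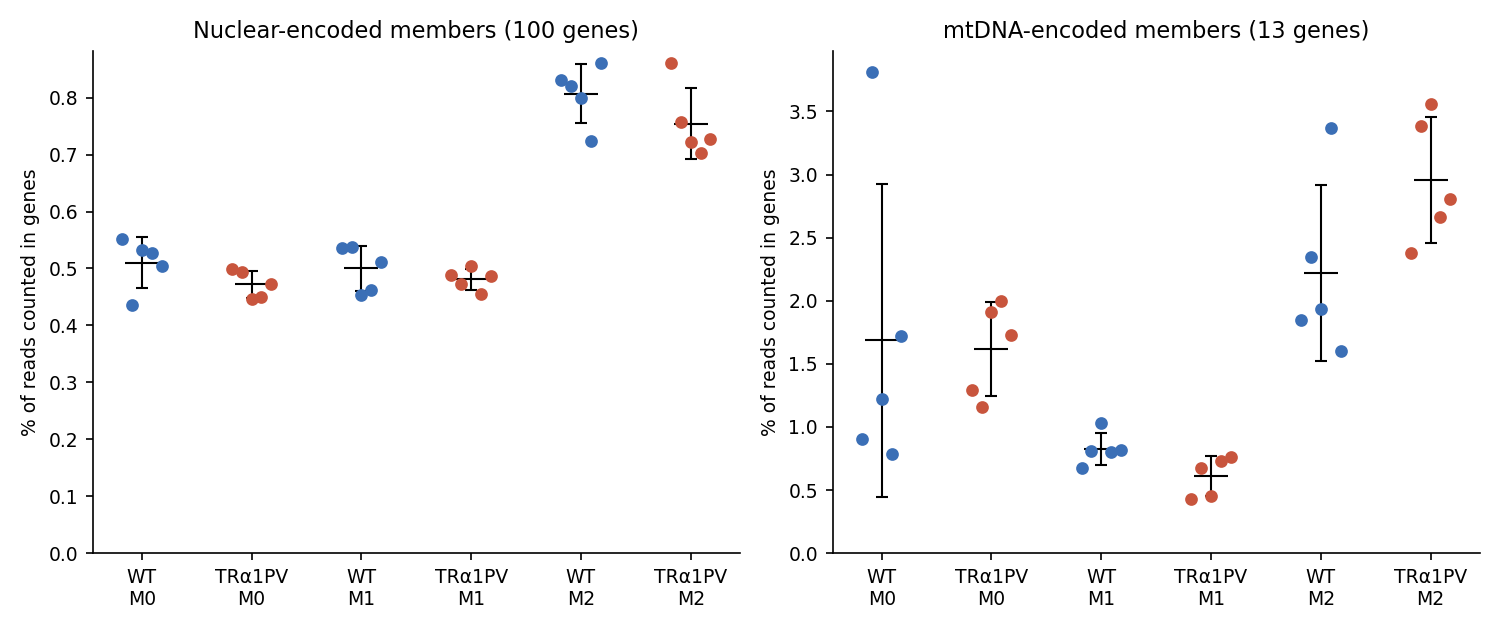
Share of the reads in genes (percent) taken by the nuclear members (left) and the mtDNA members (right) in each of the 6 groups. Points are libraries and bars are mean ± SD; the nuclear share is highest in M2 (0.807% in WT, 0.754% in TRα1PV), and 1 WT M0 library lies at 3.81% in the mtDNA panel.

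The comparison of M1 with M0 asked how stimulation with lipopolysaccharide and interferon-γ changed these genes in each genotype. In WT, 59 of the 93 nuclear members rose and 19 fell, at an adjusted p under 0.05 in edgeR's quasi-likelihood test, while 39.4% of all genes tested rose and 40.2% fell. In TRα1PV, 65 rose and 14 fell, against 40.0% and 40.7% of all genes. The median nuclear member was 0.37 higher on the log2 scale in WT and 0.50 higher in TRα1PV, with the median over all genes at -0.02 in both. Of the called nuclear members, 56 rose in both genotypes and 11 fell in both. The mtDNA members went the other way: 8 of 13 fell in WT and 12 of 13 in TRα1PV, with medians of -1.24 and -1.70. Without library 2 of WT M0, 6 fell and 1 rose in WT, at a median of -0.78. With all libraries, by edgeR, DESeq2 and voom 0 mtDNA members rose, and 0 did so at an unadjusted p under 0.05.

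The nuclear direction in M1 depends on how libraries are scaled. The TMM factors, which set the trimmed mean of most genes equal between libraries, averaged 0.826 in WT M1 and 1.14 in WT M0, and 0.816 and 1.16 in TRα1PV. Scaled by library size alone, a setting added after the data were seen, the median over all genes in M1 shifted to -0.49 in WT and -0.53 in TRα1PV. On that scale 22 nuclear members rose and 36 fell in WT (all genes 24.9% and 56.3%), and 34 rose and 35 fell in TRα1PV (25.8% and 57.1%). Relative to the all-gene median the nuclear median was then 0.39 higher in WT and 0.52 higher in TRα1PV, and the mtDNA median was 1.21 and 1.68 lower. All M1 changes below are relative to the bulk of genes in this sense.

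Complex I, which takes electrons from NADH, was mixed in M1. Of its 37 nuclear subunits, 22 rose and 9 fell in WT, and 25 rose and 4 fell in TRα1PV, with medians of 0.34 and 0.41. Ndufs4, a subunit needed for a stable NADH-oxidising module, stood at 18.4, 19.6, 19.8, 16.7 and 21.9 CPM in WT M0 and at 54.9, 51.0, 50.6, 51.7 and 54.3 in WT M1. In TRα1PV it stood at 17.0, 16.9, 15.9, 16.6 and 16.8 CPM in M0 and at 44.4, 45.9, 45.4, 46.2 and 54.0 in M1. The states did not overlap in either genotype, and the log2 change was 1.45 ± 0.07 (SE) in WT (edgeR adjusted p = 1.2e-18) and 1.5 ± 0.07 in TRα1PV (edgeR adjusted p = 4.3e-19). Ndufs8, an iron-sulphur subunit on the path of electrons to ubiquinone, fell from 25.7, 21.4, 28.1, 30.6 and 25.1 CPM to 16.9, 14.3, 11.4, 13.6 and 11.7 in WT. The 2 sets did not overlap, and the log2 change was -0.95 ± 0.11 in WT and -0.66 ± 0.11 in TRα1PV. Ndufb11 fell by 0.90 and 0.88 on the log2 scale, and Ndufc1, another accessory subunit, rose by 1.44 and 1.17. Under TMM, Ndufb7 and Ndufv3 fell in WT (-0.42 and -0.18) and rose in TRα1PV (0.23 and 0.34). Both rises are smaller than the move of the TRα1PV all-gene median, to -0.53, by library size alone. The sign of these rises therefore rests on TMM scaling. Without library 2 of WT M0 the fall of Ndufv3 did not pass (-0.13, edgeR adjusted p = 0.121).

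Complex II, succinate dehydrogenase, is encoded wholly in the nucleus, and under TMM its 4 subunits all rose in both genotypes. Sdhd, a membrane anchor, stood at 63.0, 52.9, 66.7, 63.0 and 70.0 CPM in WT M0 and at 160, 161, 142, 150 and 167 in WT M1, with no overlap, a log2 change of 1.31 ± 0.07 and an edgeR adjusted p of 1.3e-17. For Sdhb, the iron-sulphur subunit, the increase was 0.82 in WT and 1.06 in TRα1PV, and for the anchor Sdhc 0.67 and 1.06. Sdha, the catalytic flavoprotein, rose by 0.16 in each, the smallest change of the complex. That is less than the move of the all-gene median by library size alone, so its sign rests on TMM scaling. The assembly factors of complex II divided: Sdhaf1 (0.77 and 0.87) and Sdhaf2 (0.81 and 0.97) rose, while Sdhaf3 and Sdhaf4 fell. Sdhaf3, which serves the iron-sulphur subunit, stood at 1.84, 3.11, 2.65, 1.64 and 2.42 CPM in WT M0 and at 1.30, 0.559, 1.03, 0.459 and 0.868 in WT M1. In TRα1PV M0 it was at 1.91, 2.33, 2.74, 2.90 and 2.63, and in M1 at 0.466, 0.550, 0.393, 0.604 and 0.339. Every M1 library lay below every M0 library, and the log2 changes were -1.46 ± 0.22 and -2.42 ± 0.24.

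Of the 8 tested complex III subunits, 6 rose and 2 fell in WT, and 6 rose and 0 fell in TRα1PV. Uqcr10 rose by 0.92 and 1.23 and Uqcrq by 0.79 and 1.42, both small accessory subunits. Uqcr11 fell in WT (-0.46 ± 0.14), with a value of -0.00 ± 0.14 in TRα1PV.

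Complex IV had 10 of 13 tested subunits higher and 1 lower in WT, and 12 higher and 1 lower in TRα1PV, with medians of 0.70 and 1.10. Cox5a stood at 55.3, 42.2, 58.1, 49.9 and 57.8 CPM in WT M0 and at 175, 186, 153, 145 and 179 in WT M1. It lay between 47.7 and 56.3 in the 5 TRα1PV M0 libraries and stood at 142, 142, 142, 144 and 174 in M1. The states did not overlap, and it rose by 1.67 ± 0.09 and 1.51 ± 0.09 (edgeR adjusted p = 7.6e-17 and 7.5e-16). The 1 lower subunit in both genotypes was Cox4i1, the general isoform of a regulatory subunit. It fell from 245, 174, 233, 242 and 216 CPM to 161, 156, 128, 116 and 143 in WT, again with no overlap (log2 change -0.66 ± 0.09), and by 0.56 in TRα1PV. Cox4i2, the isoform known from low oxygen and lung, was among the genes too low to test. Cox6a1, whose promoter is printed above, rose by 1.08 and 1.5.

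In complex V, 11 of 17 tested subunits rose and 2 fell in WT, and 12 rose and 2 fell in TRα1PV. Atp5md rose by 1.63 and 1.22, and Atp5b, the catalytic β subunit, by 0.96 and 0.98. The 3 genes for subunit c, the rotor ring, did not move alike. Atp5g2 stood at 41.1, 17.3, 38.2, 39.9 and 34.3 CPM in WT M0 and at 18, 16.2, 10.8, 12.5 and 16.7 in WT M1. Library 2 of WT M0 was the lowest of its group and lay within the M1 range, and the log2 change was -1.20 ± 0.17 in WT and -0.88 ± 0.17 in TRα1PV. Atp5g3 rose in both genotypes under TMM and was lower under library size alone (-0.09 in WT and -0.07 in TRα1PV). Atp5k, which helps ATP synthase form dimers, rose by 0.87 and 1.30. The called assembly and accessory members were 6 higher and 5 lower in WT, and 6 higher and 7 lower in TRα1PV. Ndufaf3 (0.94 and 1.11) and Ndufaf5 (0.86 and 0.81) rose, and Ndufaf7, a methyltransferase of complex I assembly, fell (-0.94 and -1.09).

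**Figure D2:**
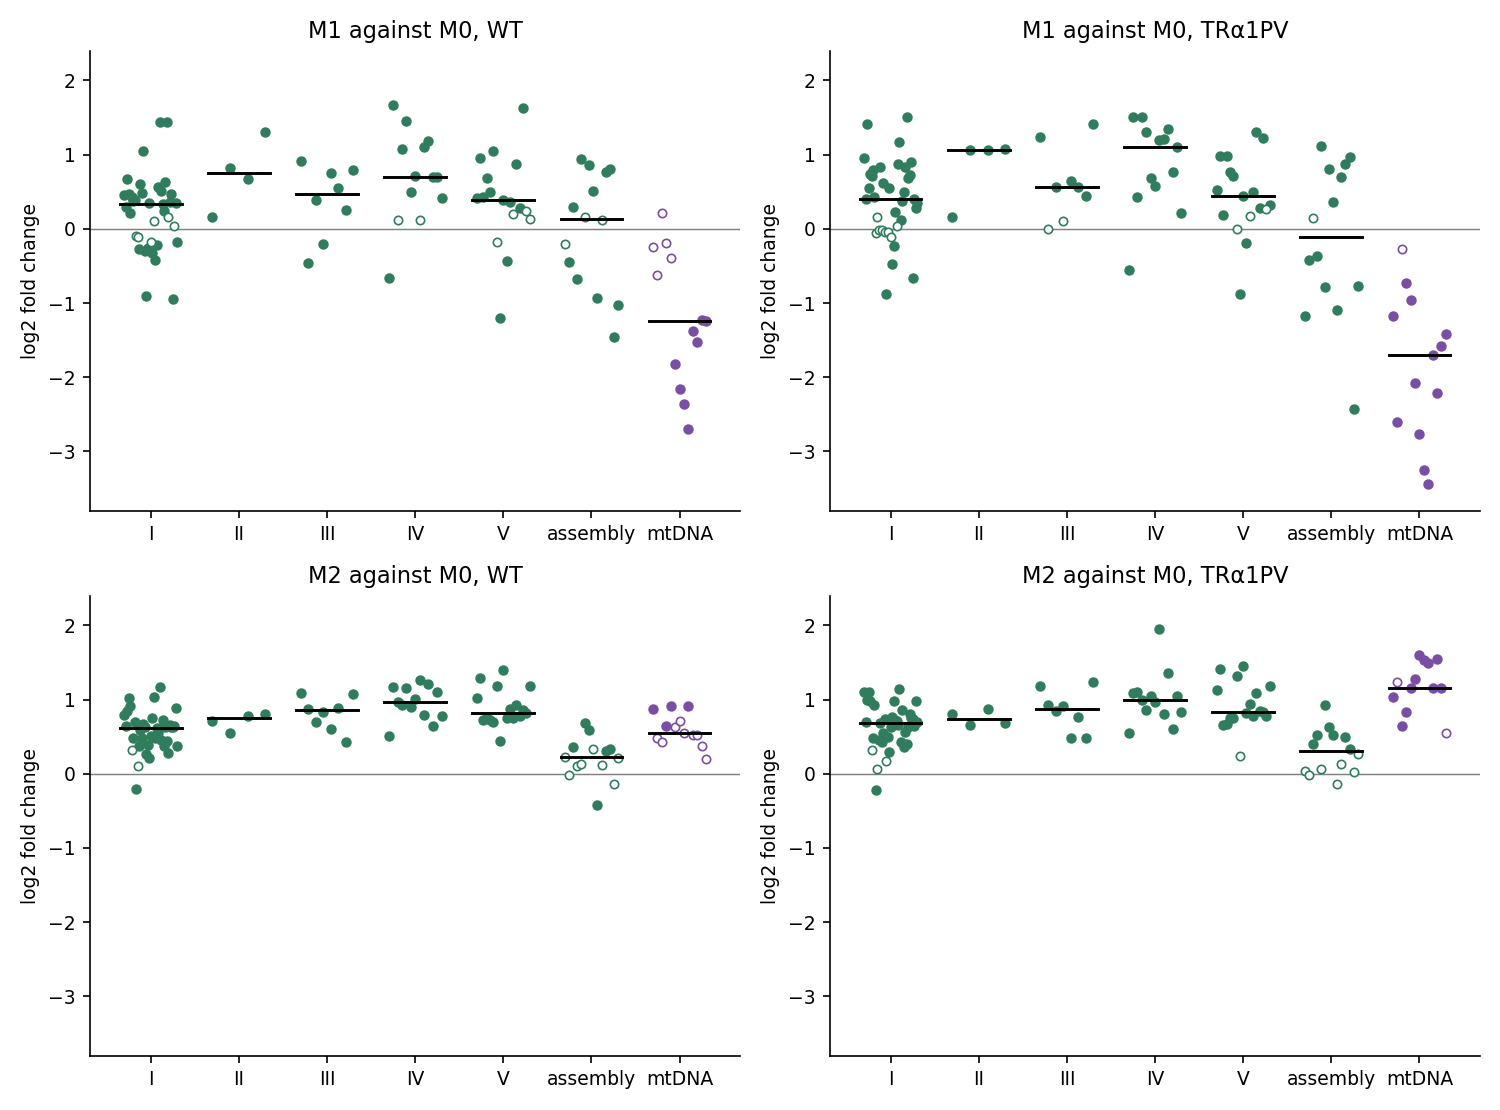
Log2 change of each tested member against M0 of the same genotype, by complex, for M1 and M2. Filled points passed an edgeR adjusted p of 0.05, open points did not, and black bars are class medians; under TMM scaling most nuclear classes lie above 0 in both states, by library size alone the M1 all-gene median moves to -0.49 in WT and -0.53 in TRα1PV, and the mtDNA class lies below 0 in M1 (median -1.24 in WT) and above 0 in M2 (0.55 in WT).

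The mtDNA members did not fall equally in M1. mt-Co1, the catalytic core of complex IV, stood at 3816, 11942, 4976, 3242 and 6747 CPM in WT M0 and at 6224, 6566, 8536, 7159 and 7058 in WT M1. In TRα1PV it stood at 5665, 5075, 7942, 8174 and 7209 in M0 and at 4070, 6076, 4172, 6571 and 7216 in M1. The states overlapped in both genotypes, with log2 changes of 0.21 ± 0.24 and -0.28 ± 0.24 that did not pass (edgeR adjusted p = 0.43 and 0.29). Without library 2 of WT M0, mt-Co1 was higher in WT M1 (0.60 ± 0.20, edgeR adjusted p = 0.0083). mt-Nd1, a membrane subunit of complex I, stood at 523, 3261, 803, 462 and 1224 CPM in WT M0 and at 165, 306, 467, 165 and 297 in WT M1. In TRα1PV it stood at 672, 665, 1378, 1318 and 1192 in M0 and at 89, 166, 105, 155 and 251 in M1. In WT the highest M1 library (467) lay above the lowest M0 library (462), and in TRα1PV the states did not overlap. The log2 changes were -2.16 ± 0.41 and -2.77 ± 0.42 (edgeR adjusted p = 2.3e-05 and 6.8e-07), and -1.43 ± 0.33 in WT without library 2 of WT M0. mt-Cytb, the mtDNA subunit of complex III, stood at 1117, 5678, 1700, 1078 and 2524 CPM in WT M0 and at 356, 842, 942, 472 and 804 in WT M1. It stood at 1563, 1586, 2325, 2367 and 2159 in TRα1PV M0 and at 308, 532, 358, 546 and 629 in M1. Neither genotype's states overlapped, and the changes were -1.82 ± 0.34 and -2.08 ± 0.34, with -1.23 ± 0.27 in WT without that library.

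The other complex I genes of mtDNA fell in both genotypes: mt-Nd2 by 2.36 and 3.25, mt-Nd3 by 2.69 and 3.44, mt-Nd4 by 1.37 and 1.70, mt-Nd4l by 1.53 and 2.21, mt-Nd5 by 1.23 and 1.58 and mt-Nd6 by 1.24 and 1.41 on the log2 scale. The complex IV and V genes had values nearer 0 in WT: -0.19 for mt-Co2, -0.39 for mt-Co3, -0.24 for mt-Atp6 and -0.63 for mt-Atp8, which did not pass. In TRα1PV these 4 fell, by 0.72, 0.97, 1.18 and 2.61. They are among the genes with few reads per base, as are mt-Nd3 and mt-Nd4l of complex I. Without library 2 of WT M0 the WT changes were -1.39 for mt-Nd2, -2.19 for mt-Nd3, -0.81 for mt-Nd4 and -0.79 for mt-Nd6, while mt-Nd4l (-0.78) and mt-Nd5 (-0.44) no longer passed (edgeR adjusted p = 0.073 and 0.14). In the same setting mt-Co2 was at 0.0030, mt-Co3 at -0.33, mt-Atp6 at 0.17 and mt-Atp8 at 0.71, none of which passed. The 2 mitochondrial ribosomal RNAs, which polyA selection captures in part, also fell in M1 with all libraries (mt-Rnr2 by 1.11 and 1.95). Their WT values without library 2 of WT M0 are not given here.

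**Figure D3:**
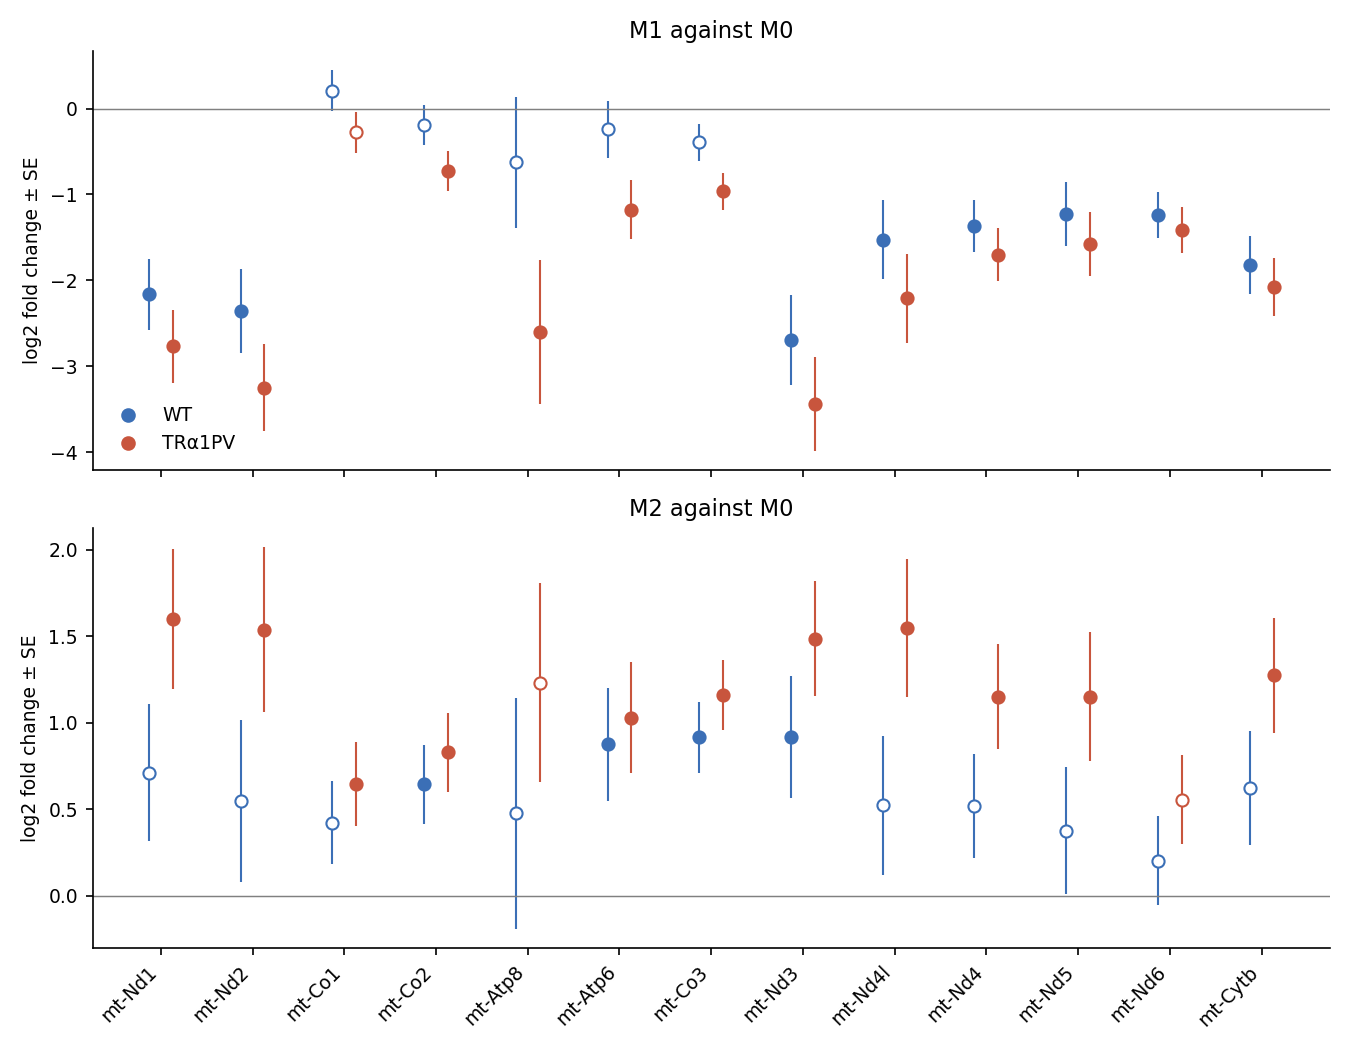
Log2 change of the 13 mtDNA genes against M0 of the same genotype, in their order along mtDNA, with bars of ± 1 SE. Filled points passed an edgeR adjusted p of 0.05; in M1 mt-Co1 lies near 0 (0.21 in WT, -0.28 in TRα1PV) while mt-Nd1 and mt-Cytb lie near -2 or below.

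Ratios within the mtDNA messages do not depend on library scaling, so mt-Nd1 and mt-Cytb were also set against mt-Co1 in the same library, a description with no test, since the genes were chosen after their values were seen. Per 100 counts of mt-Co1 there were 17.9 ± 5.5 counts of mt-Nd1 in WT M0 and 3.86 ± 1.35 in WT M1 (mean ± SD, n = 5 libraries). In TRα1PV there were 15.0 ± 2.4 in M0 and 2.65 ± 0.50 in M1. The M0 libraries spanned 11.9 to 27.3 and the M1 libraries 2.19 to 5.48 over both genotypes, with no overlap. The log2 differences of -2.24 and -2.50 exceeded the spread between libraries. For mt-Cytb the ratio fell from 36.3 ± 6.9 to 9.51 ± 3.15 in WT and from 29.4 ± 1.3 to 8.39 ± 0.49 in TRα1PV, with log2 differences of -1.99 and -1.81. With any 1 library of either group left out, the mt-Nd1 difference in WT stayed between -2.39 and -2.08. mt-Co1 thereby took 71.3% ± 5.0 of all mtDNA member reads in WT M1 and 75.3% ± 1.0 in TRα1PV M1, against 44.7% ± 5.8 and 49.0% ± 2.1 in M0.

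**Figure D4:**
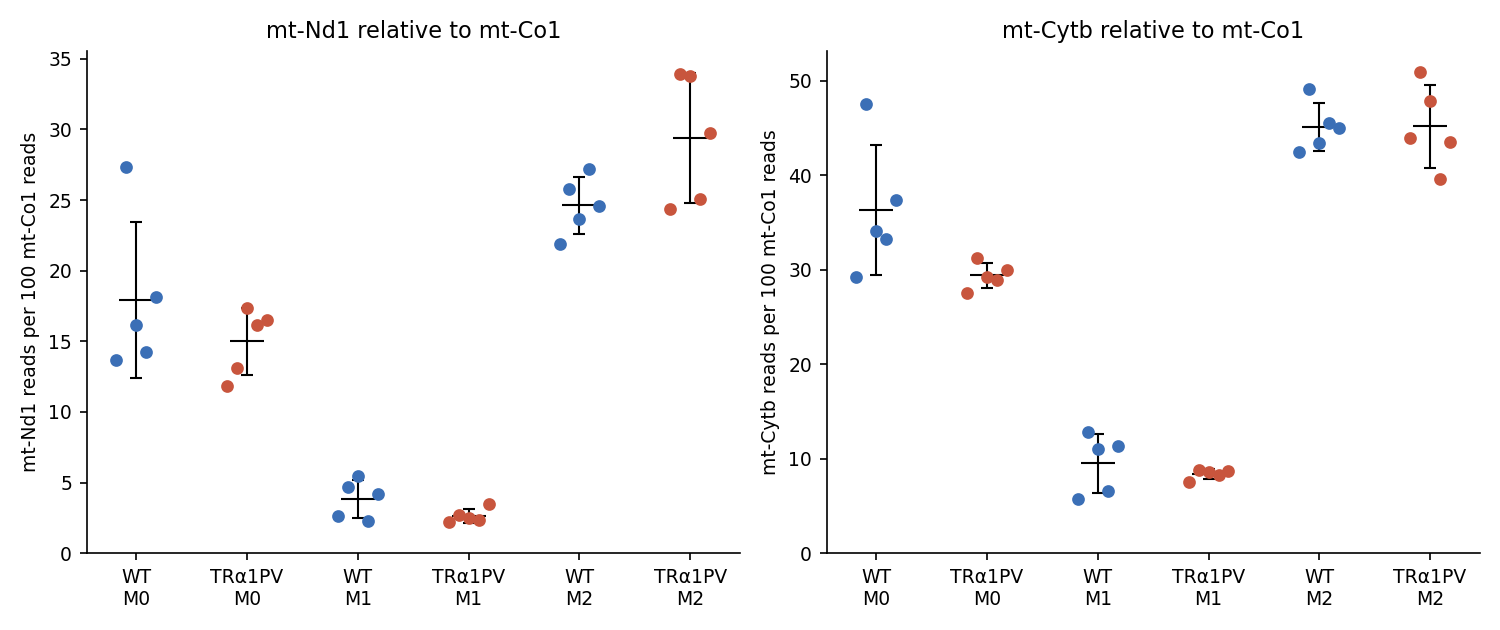
Counts of mt-Nd1 (left) and mt-Cytb (right) per 100 counts of mt-Co1 in each library. Points are libraries and bars are mean ± SD; the M1 libraries lie at 2.19 to 5.48 for mt-Nd1, below all M0 and M2 libraries.

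Most genes that copy, transcribe and maintain mtDNA fell in M1. Of 16 tested members of that list, 12 fell and 2 rose in WT (median -0.85, with 40.2% of all genes lower and 39.4% higher). In TRα1PV, 13 fell and 2 rose (median -1.03, with 40.7% and 40.0% of all genes). Top1mt, the mitochondrial topoisomerase, fell by 2.54 and 2.00. Of the initiation factors, Tfb2m fell by 1.51 and 1.97, the RNA polymerase Polrmt fell by 1.07 and 0.89, and Tefm, the elongation factor, rose by 0.83 and 0.60. Of 17 genes that stabilise or process mitochondrial RNA, 7 rose and 8 fell in WT, and 5 rose and 9 fell in TRα1PV, near the shares of all genes in WT. Lrpprc, which protects polyadenylated mitochondrial messages, fell by 1.64 and 2.21. Among 9 tested nuclear regulators of respiratory genes, 5 rose and 4 fell in each genotype. Ppargc1b, a coactivator of mitochondrial biogenesis, rose by 2.74 and 3.16, and its relative Pprc1 fell by 1.05 and 1.26. NRF1, whose motif is given above, is made from Nrf1, which rose by 0.94 and 1.10.

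Several partners of the chain had large changes in M1. Cycs, cytochrome c itself, rose by 3.42 and 3.76. AA467197, a paralog of the complex IV subunit Ndufa4, rose from a mean of 0.394 CPM in WT M0 and 0.588 in TRα1PV M0 to 561 and 543 in M1. Its fitted log2 changes were 10.48 and 9.82, and in M2 it reached 11.3 and 11.8 CPM. Ndufa4 itself was called higher in WT M1 by TMM and lower by library size alone (-0.06). Atpif1, the inhibitor of ATP synthase, fell by 1.32 and 1.15. Gpd2, which feeds electrons from glycerol phosphate to ubiquinone, rose by 2.74 and 2.92, and Etfb, which feeds electrons from fatty acid oxidation, fell by 2.47 and 2.43. Of 24 tested complex IV assembly genes, 15 rose and 7 fell in WT, and 15 rose and 6 fell in TRα1PV, where 39.4% and 40.0% of all genes rose and 40.2% and 40.7% fell. The copper chaperones Sco1 and Sco2 went opposite ways, with Sco1 higher by 3.34 and 3.39 and Sco2 lower by 2.78 and 3.49.

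Most nuclear members rose under interleukin-4. In M2 against M0, 81 of 93 rose and 2 fell in WT (all genes 25.2% higher and 27.2% lower), and 81 rose and 1 fell in TRα1PV (28.3% and 29.4%). The nuclear median was 0.68 in WT and 0.74 in TRα1PV on the log2 scale, and 79 members rose in both genotypes. By class, WT M2 had 34 of 37 complex I subunits higher, all 4 of complex II, 8 of 8 tested of complex III, 13 of 13 tested of complex IV and 17 of 17 tested of complex V. Assembly and accessory members were fewer, with 5 of 14 higher and 1 lower. Unlike in M1, library size alone left 77 higher and 2 lower in WT and 80 higher and 3 lower in TRα1PV. That scaling moved the median of all genes to -0.12 and -0.16.

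The largest nuclear change of WT M2 belonged to complex V. Atp5g3, a subunit c gene, stood at 65.1, 42.4, 65.7, 59.8 and 60.1 CPM in WT M0 and at 163, 162, 155, 129 and 162 in WT M2. In TRα1PV it stood at 57.8, 52.7, 48.8, 49.0 and 55.3 in M0 and at 170, 144, 129, 134 and 142 in M2. No M2 library overlapped M0, and the log2 changes were 1.4 ± 0.10 and 1.45 ± 0.10 (edgeR adjusted p = 1.3e-12 and 4.2e-13). Atp5b rose by 1.29 and 1.41, Atp5g1 by 1.18 and 1.32, and Atp5o, part of the stalk, by 1.18 and 1.18. Atp5g2, the subunit c gene that fell in M1, rose in WT M2 (0.44 ± 0.17), though not without library 2 of WT M0 (0.27, edgeR adjusted p = 0.087), and was at 0.23 ± 0.17 in TRα1PV, where it did not pass. In complex IV, Cox4i1 rose by 0.50 and 0.55, opposite in sign to M1, and Cox5a by 1.16 and 1.09. Cox7a1, the isoform of heart and muscle, rose by 1.26 and 1.95 but was read at 3.60 CPM at most, with 4 muscle markers at or near 0. Among smaller changes, Uqcr10 rose by 1.08 and 1.18, Uqcrq by 1.08 and 1.23 and Ndufc1 by 1.17 and 1.14. The member lower in both genotypes was Ndufa6 (-0.20 and -0.22), and Ndufaf7 fell in WT (-0.42).

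The M1 and M2 comparisons share their M0 libraries, so their values are set side by side only. In WT, 56 nuclear members rose in both states and 14 fell in M1 and rose in M2. In TRα1PV these numbers were 62 and 7. Of all genes, 39.4% rose and 40.2% fell in WT M1, and 25.2% rose in WT M2. In TRα1PV these shares were 40.0%, 40.7% and 28.3%. The overlap over all genes was not counted, and the nuclear M1 directions rest on TMM scaling. Ndufs8 was one of those that fell in WT M1 and rose in WT M2. It had 36.8, 41.8, 42.3, 36.5 and 46.0 CPM in WT M2, above all M0 libraries, and 11.4 to 16.9 in WT M1, below them.

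Some mtDNA messages were higher in M2 than in M0 in each genotype. In WT, 4 of 13 rose (mt-Atp6 by 0.87, mt-Co2 by 0.64, mt-Co3 by 0.92 and mt-Nd3 by 0.92) and 0 fell. Each of these 4 had a nuclear match of at least 99% identity over nearly its whole length. Their reads per base were at most 1.17% of those of mt-Co1. With all libraries, mt-Co1, mt-Nd1 and mt-Cytb did not pass in WT. In TRα1PV, 11 rose by edgeR, mt-Nd1 by 1.60, mt-Cytb by 1.28 and mt-Co1 by 0.65. At an unadjusted edgeR p under 0.05, 13 rose. By any of the 3 tools, or at that unadjusted p, 0 fell in TRα1PV. Whether the 2 genotypes differ in this was tested, and 0 of 13 mtDNA members passed for the difference of the genotype effect (median 0.63, and 0.018 without library 2 of WT M0). The WT count rests on single libraries: without library 2 of WT M0 it was 13, with the median at 1.22 in place of 0.55, and without library 1 or 4 of WT M0, or library 4 of WT M2, it was 1. Without library 3 of WT M0 it was 2, and with a replicate block within genotype it was 7. The mt-Nd1 to mt-Co1 ratio was 24.6 ± 2.0 in WT M2 and 29.4 ± 4.6 in TRα1PV M2. Its log2 difference from M0 was 0.50 in WT, where the libraries overlapped, and 0.97 in TRα1PV, where they did not.

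The direct question of the study was TRα1PV against WT within each state. In M0, 25 of the 93 nuclear members were lower and 3 higher in TRα1PV, where 14.0% of all genes were lower and 12.0% higher. The lower ones made up 26.9% of the nuclear members, and the nuclear median was -0.18 against -0.01 for all genes. Complex I had 13 lower and 2 higher of 37 subunits, complex III 3 lower of 8, and complexes IV and V 3 lower each of 13 and 17. In complex II, Sdhc was lower (-0.30 ± 0.10). Of the 13 mtDNA members 0 were called in either direction by edgeR, DESeq2 or voom, and 0 had an unadjusted p under 0.05 in edgeR, at a median of -0.10 that turned to 0.47 without library 2 of WT M0.

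Ndufa1, a small membrane subunit needed for assembly of complex I, had the smallest p of the nuclear members in M0. It stood at 26.9, 22.4, 24.2, 26.1 and 23.9 CPM in WT and at 16.9, 17.5, 16.3, 17.5 and 16.7 in TRα1PV. The groups did not overlap (edgeR adjusted p = 9.4e-07). Ndufb7 stood at 36.6, 26.3, 31.7, 36.0 and 32.4 CPM in WT and at 24.6, 23.3, 23.6, 23.2 and 21.4 in TRα1PV, also apart (-0.49 ± 0.09). Ndufs5 was lower by the same amount (-0.49 ± 0.08), with WT at 19.7 to 22.6 CPM and TRα1PV at 13.6 to 16. Ndufa11 was at -0.48, Uqcrq at -0.47, Uqcr11 at -0.43, Atp5g1 at -0.43, Sdhaf1 at -0.42 and Atp5k at -0.40, all called lower. Uqcrq overlapped, because library 2 of WT M0 (11.6 CPM) lay far under the 17.2 to 22.6 CPM of the other WT libraries. The 3 higher members were Atp5s, an ATP synthase accessory factor (0.57 ± 0.14), Ndufab1, the mitochondrial acyl carrier protein (0.23), and Ndufc2 (0.21 ± 0.05).

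The M0 count moved when single libraries were left out. Without library 2 of WT M0, 50 nuclear members were lower and 3 higher (all genes 20.1% and 18.7%), and 3 mtDNA members were higher, among them mt-Co1 (0.54 ± 0.20, edgeR adjusted p = 0.0354). Without library 3 of TRα1PV M0 the lower count was 14, and without library 4 of WT M0 it was 16. Markers of other cells moved with genotype in M0. The 9 granulocyte markers summed to 48.2 to 209 CPM in WT and 178 to 365 in TRα1PV, and 7 fibroblast markers to 7.04 to 23.9 in WT and 1.26 to 2.80 in TRα1PV, with no marker of either list at 0. The share of reads outside genes was 9.42% to 13.9% in WT M0 and 11.7% to 14.4% in TRα1PV M0. The part of these in the lower count was not tested, except that with the share outside genes as a covariate 9 nuclear members were lower.

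In M1, 12 nuclear members were lower in TRα1PV and 0 higher by edgeR, DESeq2 or voom, with 2 higher at an unadjusted p under 0.05 in edgeR. Of all genes 10.2% were lower and 9.74% higher, so the lower share was near that of all genes, and the nuclear median was -0.02. Of the 12, 5 were assembly factors. Ndufaf4, an early assembly factor of complex I, stood at 5.91, 7.04, 6.99, 6.50 and 5.57 CPM in WT M1 and at 2.26, 2.87, 3.54, 3.85 and 4.41 in TRα1PV M1. The groups did not overlap, and the log2 difference was -0.91 ± 0.17 (edgeR adjusted p = 0.00022). Sdhaf3 was lower by 0.86, Ndufb6 by 0.42, Ndufaf7 by 0.39 and Sdhaf1 by 0.31. For Ndufa1 the difference was -0.05 ± 0.07 and for Ndufs5 0.04 ± 0.08, neither of which passed. mtDNA members again had 0 calls by all 3 tools, with 2 lower and 0 higher at an unadjusted p under 0.05 in edgeR and a median of -0.56. Lrpprc was lower (-0.69, edgeR adjusted p = 1.8e-06), with 7 of 17 genes of mitochondrial RNA stability lower and 1 higher. Without library 1 or library 3 of TRα1PV M1 the lower count was 7. Granulocyte markers summed to 3.46 to 5.29 CPM in WT M1 and 5.68 to 11.2 in TRα1PV M1 with Elane at 0, and fibroblast markers to 4.78 to 6.60 and 2.00 to 2.95. Their part was not tested.

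In M2, 4 nuclear members were lower and 1 higher in TRα1PV (all genes 6.96% and 6.14%), all in complex I. Ndufa13 was at -0.27 ± 0.09, Ndufs4 at -0.26 ± 0.07, Ndufa1 at -0.23 ± 0.07 and Ndufs6 at -0.23 ± 0.07, and Ndufc2 at 0.18 ± 0.05. Ndufs4 separated the groups, at 27.2, 28.8, 24.7, 23.4 and 27.0 CPM in WT and 22.6, 22.7, 22.0, 20.4 and 22.2 in TRα1PV. The 4 lower members were also lower in M0, and Ndufc2 was higher there as well. A replicate block gave 8 lower, and leaving out 1 library gave 1 to 8. Granulocyte markers summed to 28.6 to 92.8 CPM in WT and 98.2 to 228 in TRα1PV, and fibroblast markers to 3.51 to 14.0 and 0.663 to 2.02, and their part was not tested. mtDNA members had 0 calls by edgeR, DESeq2 and voom, with 4 higher and 0 lower at an unadjusted p under 0.05 in edgeR (median 0.48).

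**Figure D5:**
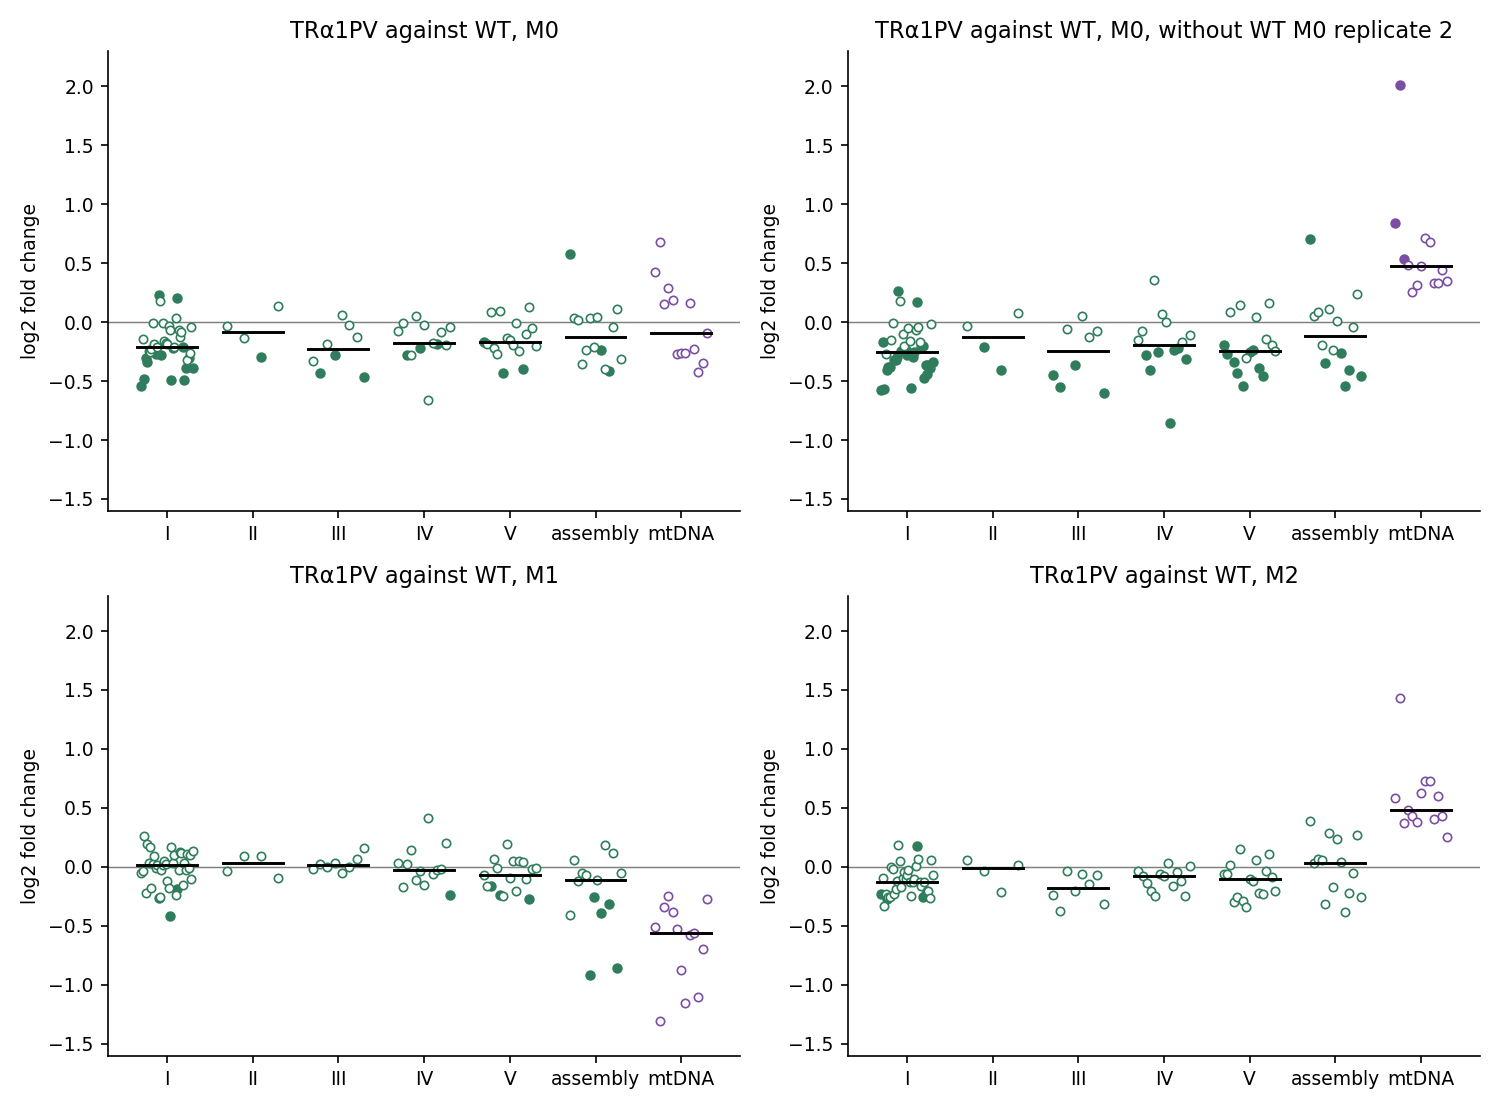
Log2 difference of TRα1PV from WT for each tested member, by complex, in M0, in M0 without library 2 of WT M0, in M1 and in M2. Filled points passed an edgeR adjusted p of 0.05, open points did not, and black bars are class medians. With all libraries, 25 nuclear members are filled below 0 in M0, 12 in M1 and 4 in M2, and no mtDNA gene is filled. In M0 without library 2 of WT M0, 50 nuclear members are filled below 0 and 3 mtDNA genes above 0.

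Whether the genotype difference itself changed with state was tested as a difference of differences. From M0 to M1, 12 nuclear members shifted upward in TRα1PV relative to WT and 9 downward (13.3% of all genes in each direction). The upward share of the nuclear members was thus near that of all genes, and the downward share was lower. Of the mtDNA members, 0 passed by edgeR, DESeq2 or voom, and 0 had an unadjusted p under 0.05 in edgeR. Complex I held 7 of the upward and 3 of the downward shifts, and the 3 assembly and accessory calls were all downward (Ndufaf4, Sdhaf3 and Atp5s). Ndufb7 shifted by 0.66 ± 0.13, Ndufa1 by 0.49 ± 0.10, Ndufv3 by 0.53 ± 0.11 and Ndufs5 by 0.53 ± 0.11, each called lower in TRα1PV M0 and at -0.05 to 0.17 in M1, where none passed. Ndufc2 shifted by -0.39 ± 0.07: it stood at 27.2 to 32.9 CPM in WT and 33.9 to 37.2 in TRα1PV in M0, and at 41.0 to 47.0 and 36.9 to 39.7 in M1. Its order of genotypes was opposite in the 2 states, without overlap in either. Ndufa11 (0.74), Uqcrq (0.63) and Cox7a1 (1.07) shifted upward, and Ndufaf4 (-0.94 ± 0.23), Sdhaf3 (-0.96 ± 0.33) and Atp5s (-0.98 ± 0.20) downward. Without library 2 of WT M0 the upward count was 32, where 19.1% of all genes shifted upward and 18.8% downward. In that setting 7 mtDNA members shifted downward, with the mtDNA median moving from -0.57 to -1.14. The upward count was 7 without each of libraries 1 and 4 of WT M0, 3 of TRα1PV M0, 3 and 4 of WT M1, and 1 and 3 of TRα1PV M1. From M0 to M2, 0 nuclear and 0 mtDNA members passed in edgeR, DESeq2 or voom (all genes 0.701% upward and 1.46% downward by edgeR). At an unadjusted p under 0.05 in edgeR, 5 nuclear members had shifted upward and 0 downward, with 0 mtDNA members. The smallest p there belonged to Ndufs5, at 0.36 (edgeR adjusted p = 0.102).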

How the data were processed

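Raw read counts per Ensembl gene were deposited by the authors, 1 table for each of the 30 libraries, not normalized. Per the submitters' processing notes, the tools were HISAT2 2.2.1, HTSeq 1.99.2, Trimmomatic 0.39, Cufflinks, limma, edgeR, R 4.3.2 and FastQC 0.11.9, with GRCm39. No source used here gives the annotation release or strand setting. Of 55414 gene IDs, 52081 received a symbol from GENCODE and RefSeq tables of GRCm38, and no coordinates of the files' genes are printed. Reads given to no gene were left out: those outside genes were 8.66% to 14.4% and those not uniquely aligned 5.01% to 7.93% of a library.

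Counts were tested with edgeR 4.0.16 in R 4.3.3. Genes passing filterByExpr by group (minimum count 10, minimum total 15) numbered 15686. Libraries were scaled by TMM, and 1 quasi-likelihood fit over the 6 groups had 24 residual degrees of freedom. Calls are two-sided, at p under 0.05 after Benjamini-Hochberg adjustment over all genes tested. SEs are the log2 change divided by the square root of the F statistic and are approximate. CPM use TMM library sizes. The fit was also run on data simulated from the mean levels and dispersions of these counts, with the outcome not given here. Nuclear copies were found with BLAST 2.17.0 among GENCODE transcripts.

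The members and lists were chosen with earlier results of these data known. Named were the mtDNA genes, the isoforms, the largest called change up and down of each class, and the 3 smallest p of a comparison. Other named genes were chosen after their values were seen. The labels give the replicate number under a tag named batch and do not say what same-numbered libraries share. The main fit did not pair libraries, and a replicate block, which pairs same-numbered libraries, was an alternative. In M0, residuals of same-numbered WT and TRα1PV libraries correlated by -0.37 to 0.26, with a mean of -0.07, the lowest of the pairs of groups checked. The highest mean was 0.18, between same-numbered TRα1PV M0 and M2 libraries, against -0.05 for other numbers. Other alternatives were limma 3.58.1 with voom, DESeq2 1.42.0, no filter, only the groups compared, the share outside genes as a covariate, library size alone, and each library left out. No 2 libraries of a group agreed within sampling noise (chi-square over degrees of freedom 6.28 to 200 over 60 pairs).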

Additional observations from a re-analysis of the deposited data

Results flagged for a closer look

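Some libraries lay apart from the 4 others of their group by Dixon's criterion for 5 values (0.71). Of 120 groups of values checked, 10 held such a library, and chance marks about 1 in 20 groups. Library 2 of WT M0 had 874 reads of mtDNA members per 100 reads of nuclear members, an mt-Nd1 level of 3261 CPM, an Atp5g2 level of 17.3 CPM and an Atp5g3 level of 42.4 CPM. The first and second of these were the highest of the group and the last 2 the lowest. Library 4 of WT M2 had 10.8% of its reads outside genes, the highest of its group. The same library had the lowest Cox5a (98.8 CPM) and Atp5g3 (129 CPM) of that group. Library 5 of TRα1PV M1 was highest for Ndufs4 (54.0 CPM) and Cox5a (174 CPM), and library 1 of TRα1PV M2 for Cox7a1 (3.60 CPM).

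The genotype difference changed from M0 to M1 by an edgeR interaction test in 6 members with the smallest p, by -0.39 for Ndufc2, 0.66 for Ndufb7, 0.49 for Ndufa1, 0.53 for Ndufv3, -0.98 for Atp5s and 0.53 for Ndufs5 on the log2 scale. With all libraries, nuclear members were called in that test no more often than all genes.

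Nuclear copies of mtDNA, which no comparison used, also held reads over the 30 libraries: 77662 for Gm29216 (best match of mt-Co1), 67253 for Gm28661 (mt-Co2), 67145 for Gm10925 (mt-Atp6), 44019 for Gm28437 (mt-Co3), 22740 for Gm28439 (mt-Nd4), 5911 for Gm10222 (mt-Nd4l) and 3470 for Gm28438 (mt-Nd3). Where the molecules came from was not tested.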

How the results depend on the processing

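Over 172 results for single genes, 3572 of 3784 values from alternatives kept the direction and the side of the threshold, 172 fell short of it, 34 newly passed it and 6 changed sign. By library size alone, chosen after the data were seen, Atp5g3 in M1 became -0.066 in TRα1PV and -0.088 in WT, and Ndufa4 -0.29 and -0.060. With a covariate for reads outside genes, Ndufa4 in TRα1PV M1 became -0.0081 and mt-Co1 0.49. The causes were not tested.

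Counts of called members moved by over 1.5 times as follows. By library size alone, 22 nuclear members were higher and 36 lower in WT M1, 34 and 35 in TRα1PV M1, 3 lower in TRα1PV M2, and 0 higher for genotype in M2. With the covariate, genotype gave 9 nuclear members lower and 2 mtDNA members lower in M0, 14 nuclear higher and 10 mtDNA lower in M1, and 1 nuclear lower in M2. The covariate also gave 3 mtDNA members higher in WT M1, 1 higher and 7 lower in TRα1PV M1, 13 higher in WT M2, and 4 and 6 nuclear members lower in WT and TRα1PV M2. Fitting only the groups compared gave 15 nuclear members lower for genotype in M0, 2 mtDNA lower in M1, and 2 nuclear higher, 16 lower and 4 mtDNA higher in M2, with 2 mtDNA higher in WT M2. For genotype in M2, voom and DESeq2 each gave 2 higher and 7 lower, and no filter gave 0 and 1. Voom gave 8 mtDNA members higher in WT M2. Without both M0 libraries numbered 2, genotype in M0 gave 54 nuclear lower and 4 mtDNA higher, WT M1 gave 1 mtDNA higher, WT M2 13 higher, and the shift from M0 to M1 gave 37 nuclear upward and 10 mtDNA downward. The shift to M2 then gave 1 nuclear upward.

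With a replicate block, which pairs libraries of the same number, genotype in M2 gave 8 nuclear members lower, and with the block within genotype WT M2 gave 7 mtDNA members higher. The block changed no other count by over 1.5 times.

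Leaving out 1 library at a time gave, for genotype, 2 to 4 nuclear members higher and 14 to 50 lower in M0, 7 to 14 lower in M1, and 0 to 2 higher and 1 to 8 lower in M2. It gave 0 to 3 mtDNA members higher in M0 and in M2 and 0 to 1 lower in M1. In WT M1 mtDNA members were 0 to 1 higher and 6 to 9 lower, and in WT M2 1 to 13 were higher. The shift to M1 ranged from 7 to 32 nuclear members upward and 6 to 11 downward with 0 to 7 mtDNA downward, and the shift to M2 from 0 to 2 nuclear upward. Members with few reads, among them mt-Nd3, mt-Atp8, Sdhaf3 and Cox7a1, are limited by depth.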

Other observations

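Genes that serve the chain without being part of it were counted from lists written with earlier results of these data known. Of 13 tested genes of ubiquinone synthesis, 6 rose and 3 fell in WT M1, and 8 rose and 3 fell in TRα1PV M1, beside 39.4% and 40.0% of all genes higher and 40.2% and 40.7% lower. The WT share of higher members was near that of all genes. Coq8a, a kinase-like protein of that pathway, fell by 2.28 and 2.58 on the log2 scale in M1, and Coq10b, a ubiquinone-binding protein, rose by 1.90 in WT M1. In M2, Pdss1, which makes the side chain of ubiquinone, rose by 1.5 in WT and 1.45 in TRα1PV.

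Of 7 tested carriers, porins and uncoupling genes, 5 rose and 1 fell in WT M1, and 6 rose and 1 fell in WT M2, where 25.2% of all genes rose and 27.2% fell. Ucp2, an uncoupling protein, fell in all 4 comparisons, by 1.73 and 1.37 in M1 and by 0.29 and 0.33 in M2. Slc25a5, the ADP and ATP exchanger, rose by 1.38 and 1.4 in M2. Of 10 tested complex I assembly genes outside the members, 3 rose and 5 fell in WT M1 (all genes 39.4% higher and 40.2% lower), and Tmem186 fell by 1.77 in WT and 2.01 in TRα1PV. Between genotypes in M0, Ecsit, another such factor, was lower in TRα1PV (-0.70, edgeR adjusted p = 1.3e-05), as were Higd1a, a complex IV factor (-0.77), and Cycs (-0.41). Fmc1, an ATP synthase assembly factor, rose by 1.67 in WT M2 and 1.58 in TRα1PV M2. Of 6 tested complex III assembly genes, 5 rose in M2 in each genotype (25.2% of all genes in WT and 28.3% in TRα1PV).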
